A study of Mus musculus with 7 samples.

Results

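Genes of mitosis and the spindle checkpoint were followed in bulk subcutaneous Lewis lung carcinoma tumours: 42 genes, listed by symbol for their roles in mitotic entry, chromosome condensation, kinetochores, the spindle, the checkpoint, cytokinesis and anaphase ubiquitination, of 32212 genes in the files. All 42 were found by their Ensembl identifiers and all 42 passed the filter on low values, with FPKM above 0.5 in each of the 7 libraries. FPKM is the authors' unit, reads of a gene divided by its length and by all reads of that library. Mean levels ran from 2.02 FPKM (Cdc25c) to 62.4 FPKM (Mki67), and no member had fewer than 249 reads in any library.

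The tumours were grown in wild-type C57BL/6J mice from LLC (Lewis lung carcinoma) cells, which are mouse lung cancer cells that grow after transplantation, placed under the skin when the mice were 6 weeks old. The 4 control libraries came from untreated model mice and the 3 treated libraries from mice on the high dose, 42.67 g/kg, of the herbal medicine Ze-qi decoction (ZQD). For every library alike, the series design gives day 21 for the tumours and the protocol gives day 22. The labels do not tie each library to its own mouse. The p-values therefore reflect the spread among these libraries, part of which may be technical. Every group carries host stroma and leukocytes as well as LLC cells, although the cell type is labelled tumour cell.

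Cells that enter mitosis switch on the kinase Cdk1 with its cyclins, condense their chromosomes, attach them to the spindle through kinetochores, and wait at the spindle checkpoint until every chromosome is attached. The anaphase-promoting complex then marks cyclins and securin for destruction, and the cleavage furrow divides the cell. Most of these genes are transcribed late in the cycle, from G2 into mitosis, whereas genes of DNA replication are switched on earlier, from late G1 into S phase. In tumours both sets are used as measures of how many cells are cycling.

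The promoters of late and early genes are known to differ in sequence. Late genes often carry the cell cycle genes homology region (CHR, TTTGAA), bound by the DREAM and MMB complexes, together with CCAAT boxes (CCAAT), while early genes often carry E2F sites. RefSeq promoters on GRCm38.p6, covering 250 bases before to 50 bases after a start, were matched by symbol for 35 of the 42 members and for 42 of 51 S-phase genes. The CHR letters, searched on both strands, stood in the promoters of 28 of those 35 members, in 7 of the 42 S-phase genes, in 23 of 46 other mitotic genes and in those of 20.2% of all 27025 symbols (17.9% of all 32851 promoters), where a symbol counts if any of its promoters holds the letters. CCAAT, on both strands, stood in 27 of 35 members, in 25 of 42 S-phase genes, in 28 of 46 other mitotic genes and in 41.1% of all symbols (37.4% of promoters). The E2F letters TTTGGCGC, TTTCGCGC or TTTCCCGC, on both strands, stood in 2 of 35 members, in 16 of 42 S-phase genes, in 6 of 46 other mitotic genes and in 2.12% of all symbols (1.84% of promoters). A match is a description of letters, not of binding. In 26 of the 28 members the CHR letters nearest the start lay within 50 bases of it. Ccna2, Cdc25c, Smc4, Aurkb, Incenp, Tpx2 and Kif20a had no promoter in the table. Ccnb1, Bub1, Mad2l1, Cenpe, Nuf2, Birc5 and Nusap1 did not have the CHR letters in this window.

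The 100 bases before the start are shown for 4 members and, for contrast, for the replication helicase gene Mcm6, each 5′ to 3′ on the gene's strand with CHR, CCAAT and E2F letters of either strand in capitals. Kif11 has the CHR and CCAAT letters that 24 of the 35 members share. Cdk1 has them too but is also, with Ncapg, 1 of the 2 members with E2F letters, which in Cdk1 lie upstream of the stretch shown. Cdc20 and Ube2c are the pair of anaphase ubiquitination genes described last. Cdc20 is at chr4:118437344-118437443 (minus strand), Ube2c at chr2:164769829-164769928 (plus), Cdk1 at chr10:69352913-69353012 (minus), Kif11 at chr19:37376282-37376381 (plus) and Mcm6 at chr1:128359706-128359805 (minus).
Cdk1: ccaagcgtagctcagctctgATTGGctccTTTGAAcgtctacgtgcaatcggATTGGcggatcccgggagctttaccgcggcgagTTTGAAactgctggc
Kif11: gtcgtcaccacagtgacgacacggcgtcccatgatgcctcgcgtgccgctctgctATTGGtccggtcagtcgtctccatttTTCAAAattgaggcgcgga
Cdc20: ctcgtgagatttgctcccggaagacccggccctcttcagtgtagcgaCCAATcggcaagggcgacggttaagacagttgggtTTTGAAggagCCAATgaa
Ube2c: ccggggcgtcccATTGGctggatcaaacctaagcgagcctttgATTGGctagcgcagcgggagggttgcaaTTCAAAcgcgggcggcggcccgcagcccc
Mcm6: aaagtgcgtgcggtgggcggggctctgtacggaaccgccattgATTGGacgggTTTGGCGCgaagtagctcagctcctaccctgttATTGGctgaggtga
In Cdk1, Kif11, Cdc20 and Ube2c the CHR letters nearest the start lie 15, 19, 18 and 29 bases before it, with CCAAT letters in each of these stretches. The Mcm6 stretch holds an E2F match and CCAAT letters but not the CHR letters.

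Setting ZQD tumours beside controls asks whether treatment changes the expression of mitosis genes, and whether they move apart from genes of S phase. In the ZQD tumours 39 of the 42 members had a positive log2 fold change (41 with TMM scaling and 32 on the TPM scale), against 41.8% of all 14838 genes tested, and the median over members was 0.19 against -0.043 over all genes. No member passed the threshold in limma: 0 of 42 had a Benjamini-Hochberg adjusted p under 0.05, as had 0 (0%) of all genes, and the smallest adjusted p of a member was 0.154. At an unadjusted p under 0.05, 8 members were higher and 0 lower, where 5.21% of all genes were higher and 10.3% lower. These 8 were Nusap1, Bub1b, Hmmr, Kif2c, Kif20b, Incenp, Aspm and Cenpe. DESeq2 on reads rebuilt from the FPKM called 2 members, Nusap1 and Bub1b, both higher, where it called 4.13% of genes in either direction and 2.3% as higher. At an unadjusted p under 0.05 DESeq2 had 16 members higher and 0 lower, where 8.01% of genes were higher and 7.65% lower. edgeR on the same reads called 0 members and 0% of genes. At an unadjusted p under 0.05 edgeR had 13 members higher and 0 lower, where 7.65% of genes were higher and 7.33% lower. Unless another tool or setting is named, a fold change is the ZQD mean less the control mean of log2(FPKM + 0.5).

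The median of 0.19 rested in part on 2 libraries and on the scaling. It was 0.12 without control 1 and 0.14 without ZQD 3, and the count at an unadjusted p under 0.05 was then 3 and 2 in place of 8, while it was 12 without control 2 and 13 without control 4. The fold changes of 21 members moved by over 1.5 times without control 1 and of 17 without ZQD 3, and of 8 to 11 without any other library. On the TPM scale, where the median over all genes was -0.15, the members' median was 0.089 and 32 of 42 stayed positive. Control 1 was the lowest of the 7 libraries for 34 of 42 members and ZQD 3 the highest for 22. Control 1 was also the deepest library, at 49914394 reads against 32065288 to 39391002 in the others, and its summed skeletal muscle markers were at 28.7 FPKM against 2.08 to 9.66 FPKM elsewhere. Their part in the members' values was not tested.

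**Figure D1:**
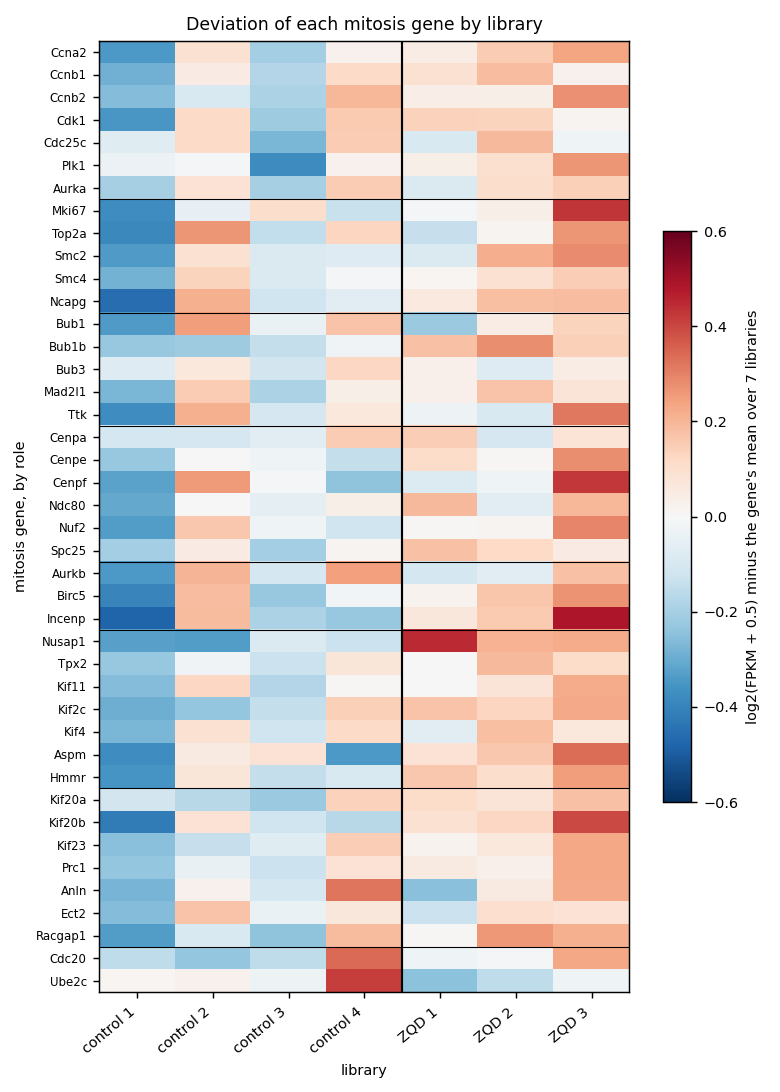
Each row is a mitosis gene, grouped by role, and each column a library; colour is log2(FPKM + 0.5) minus the gene's mean over the 7 libraries, and the vertical line parts 4 controls from 3 ZQD. Control 1 is the lowest library for 34 of 42 genes and ZQD 3 the highest for 22, while Ube2c and Cdc20, at the bottom, are highest in control 4.

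Markers of other cells also differed between these libraries, though not every list moved alike. Macrophage markers had positive fold changes for 8 of 9 tested genes of 10, with a median of 0.38. In limma 4 of them were higher at an unadjusted p under 0.05, where 5.21% of all genes were. DESeq2 called 2 of them, where it called 4.13% of genes in either direction. Their summed levels were 734 to 936 FPKM in controls and 853 to 1052 FPKM in ZQD, and their mean log2(FPKM + 0.5) was 5.16 to 5.54 and 5.58 to 6.00, without overlap. Neutrophil markers were positive for 6 of 6 tested of 10 (13.98 to 32.8 FPKM in controls and 19.4 to 76.1 FPKM in ZQD). Fibroblast markers were positive for 6 of 7 tested of 8 (24.2 to 91.6 FPKM and 42.9 to 186.5 FPKM), T cell markers for 10 of 10 (20.6 to 33.1 FPKM and 28.8 to 39.7 FPKM), and endothelial markers for 7 of 7 tested of 8 (19.1 to 32.4 FPKM and 20.2 to 40.5 FPKM). General leukocyte markers were positive for only 3 of 5 (134.8 to 153.8 FPKM and 148.1 to 162.9 FPKM). At an unadjusted p under 0.05 in limma, 0 general leukocyte, 0 neutrophil and 0 endothelial markers passed. At that p 1 T cell marker and 1 fibroblast marker were higher. Erythroid and platelet markers were positive for 4 of 7 tested of 8 (67.5 to 242.3 FPKM and 61.5 to 414.1 FPKM). Mitochondrially encoded genes took 5.18% to 7.96% of reads in controls and 8.78% to 11.1% in ZQD. None of the marker genes was at 0 in every library. Lung and epithelial markers were positive for 1 of 3 tested of 8 (10.1 to 34.1 FPKM in controls and 8.83 to 22.2 FPKM in ZQD). Of these genes Epcam, Krt8, Nkx2-1 and Sftpc stayed below 0.5 FPKM in every library, with Nkx2-1 at 0 in all controls. Krt18 reached at most 0.702 FPKM, Cdh1 1.26 FPKM and Napsa 1.601 FPKM, whereas Krt19 was at 6.26 to 31.6 FPKM. In bulk tumour, a different number of dividing cells and a different amount of these transcripts per cell cannot be told apart, and the part of other cell types in the members' values was not tested.

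Genes that drive mitotic entry are the cyclins Ccna2, Ccnb1 and Ccnb2, their kinase Cdk1, the phosphatase Cdc25c that activates it, and the kinases Plk1 and Aurka. All 7 had positive fold changes (0.045 to 0.25, median 0.18), except that Aurka and Cdc25c were negative on the TPM scale. None had an unadjusted p under 0.05 in limma, and Ccna2 and Plk1 did in edgeR and DESeq2. Ccna2 (ENSMUSG00000027715), the cyclin of S phase and early mitosis, was at 38.6, 52.4, 42.6 and 50.03 FPKM in controls 1 to 4 and at 50.7, 54.6 and 58.1 FPKM in ZQD 1 to 3. ZQD 2 and ZQD 3 lay above all controls and ZQD 1 lay below control 2, a log2 fold change of 0.25 (in limma, SE 0.12 and adjusted p = 0.348). Ccnb2 (ENSMUSG00000032218), a B-type cyclin, was at 46.8, 52.7, 49.2 and 64.6 FPKM across controls and 57.7, 57.5 and 68.0 FPKM across ZQD. Its groups overlapped because control 4 lay above ZQD 1 and ZQD 2 (0.20, limma adjusted p = 0.464). Both Ccnb1 and Ccnb2 have annotated pseudogenes, so their reads are uncertain to that extent. Plk1, a kinase of spindle assembly, was at 27.3, 27.8, 21.4 and 28.5 FPKM in the 4 controls, against 28.7, 29.98 and 33.8 FPKM in the 3 ZQD libraries, groups that did not overlap but nearly touched. Cdk1 (0.17), Ccnb1 (0.18), Aurka (0.094) and Cdc25c (0.045) overlapped between groups. Without control 1, Cdk1 was at 0.076, Ccnb1 at 0.11 and Aurka at 0.041.

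Chromosome structure genes comprised Mki67, which coats mitotic chromosomes and is the Ki-67 proliferation marker, the topoisomerase Top2a, and the condensin subunits Smc2, Smc4 and Ncapg. All 5 had positive fold changes (median 0.24), with Top2a negative on the TPM scale, and none had separate groups. Mki67 (ENSMUSG00000031004) was at 47.5, 59.6, 66.3 and 56.1 FPKM across controls and 61.1, 63.3 and 83.0 FPKM across ZQD. Only ZQD 3 lay above all controls, and the log2 fold change of 0.26 (in limma, SE 0.14 and adjusted p = 0.408) was 0.13 to 0.35 with 1 library left out, with 0.13 without ZQD 3. Top2a (ENSMUSG00000020914), which untangles sister DNA, was at 43.4, 68.5, 51.4 and 62.2 FPKM in the 4 controls, against 51.7, 57.7 and 68.6 FPKM in the 3 ZQD libraries. All ZQD values of Top2a lay within the control range or level with its top, with a log2 fold change of 0.085 whose 95% interval ran from -0.29 to 0.46. Smc2 (ENSMUSG00000028312) was at 19.6, 26.6, 23.4 and 23.6 FPKM across controls and 23.5, 29.1 and 30.4 FPKM across ZQD, with ZQD 1 inside the control range. Smc4 and Ncapg had log2 fold changes of 0.14 and 0.25, which were 0.070 and 0.13 without control 1.

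Spindle checkpoint genes had unequal fold changes, a difference between genes that was not tested. Bub1b (ENSMUSG00000040084), which encodes the checkpoint protein BubR1 that holds back the anaphase-promoting complex, was at 23.7, 23.9, 25.2 and 27.4 FPKM in the 4 controls, against 31.6, 33.9 and 30.8 FPKM in the 3 ZQD libraries. All ZQD libraries of Bub1b lay above all controls, with means of 25.1 ± 1.68 (SD, n = 4) and 32.1 ± 1.62 FPKM (SD, n = 3). The log2 fold change was 0.35 (SE 0.083), with an adjusted p of 0.156 in limma, 0.139 in edgeR and 0.00787 in DESeq2, and 0.31 to 0.39 with 1 library left out. Its partner kinase Bub1 (ENSMUSG00000027379) was at 14.9, 22.7, 18.4 and 21.4 FPKM across controls and 16.2, 19.5 and 20.8 FPKM across ZQD. The ZQD values of Bub1 lay inside the control range, and the log2 fold change of -0.027 had an interval of -0.38 to 0.32. Mad2l1, the Mad2 protein of the checkpoint complex, had a log2 fold change of 0.16, the kinase Ttk (Mps1) of 0.11 and Bub3, which recruits Bub1 and BubR1 to kinetochores, of -0.0021. The signs of Bub1 and Bub3 turned under several scalings, so no direction is given for them.

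**Figure D2:**
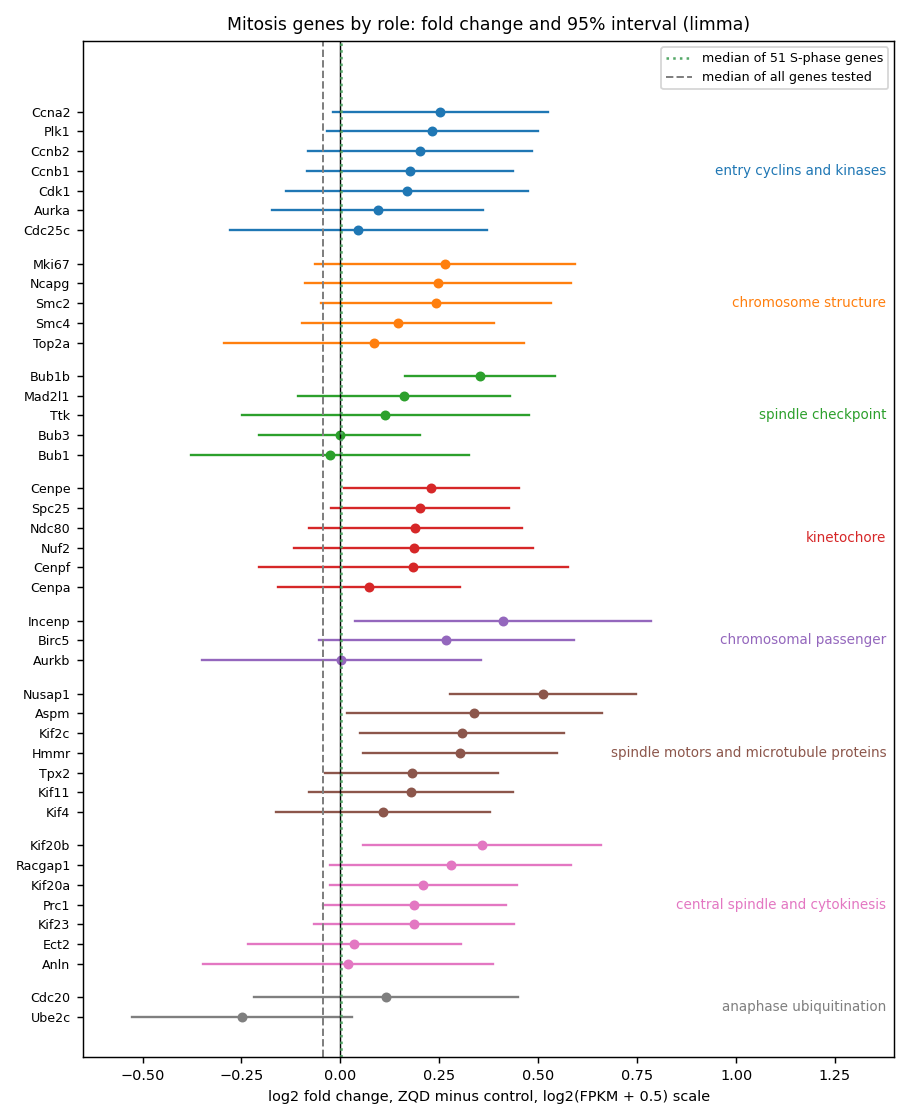
Points give each mitosis gene's log2 fold change (ZQD mean less control mean of log2(FPKM + 0.5)), bars the 95% interval from limma, and colours the role; lines mark 0, the median of 51 S-phase genes and the median of all genes tested. All but Ube2c, Bub1 and Bub3 lie above 0 (on the TPM scale 7 more do not), and Nusap1 and Bub1b lie farthest from 0 in units of their interval.

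Kinetochore genes build the plate on the centromere that binds spindle microtubules. All 6 had positive fold changes (0.072 to 0.23, median 0.19), with Cenpa negative on the TPM scale. Cenpe (ENSMUSG00000045328), a motor that carries chromosomes to the spindle's middle, was at 16.0, 18.7, 18.4 and 17.0 FPKM in the 4 controls, against 20.3, 18.8 and 22.8 FPKM in the 3 ZQD libraries. Its groups did not overlap, although ZQD 2 exceeded control 2 by little, and the log2 fold change was 0.23 (in limma, SE 0.097 and adjusted p = 0.31). Cenpa (ENSMUSG00000029177), the centromeric histone, was at 13.6, 13.6, 13.9 and 16.3 FPKM across controls and 16.2, 13.6 and 15.5 FPKM across ZQD. Control 4 was the highest library for Cenpa, and the log2 fold change was 0.072. Ndc80, Nuf2 and Spc25, subunits of the Ndc80 complex that grips microtubules, had log2 fold changes of 0.19, 0.19 and 0.20. Cenpf, a kinetochore protein of late G2, was at 0.18, and at 0.025 without ZQD 3. Nuf2 was at 0.099 without control 1 and at 0.091 without ZQD 3.

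Chromosomal passenger genes encode the complex that corrects wrong attachments and later directs cytokinesis. Incenp (ENSMUSG00000024660), its scaffold, was at 29.7, 47.6, 36.4 and 35.5 FPKM in the 4 controls, against 43.6, 46.4 and 58.4 FPKM in the 3 ZQD libraries. Control 2 lay above ZQD 1 and ZQD 2, so the groups overlapped, with a log2 fold change of 0.41 (in limma, SE 0.16 and adjusted p = 0.287). Birc5 (ENSMUSG00000017716), which encodes survivin, was at 14.7, 22.2, 16.5 and 19.2 FPKM across controls and 19.8, 21.9 and 23.5 FPKM across ZQD (log2 fold change 0.27, limma adjusted p = 0.399). Aurkb, the kinase of the complex, was at 13.6 to 20.7 FPKM in controls and 16.1 to 19.7 FPKM in ZQD, a log2 fold change of 0.0027 with an interval of -0.35 to 0.36 (negative on the TPM scale). The 3 listed subunits thus had unequal fold changes in the same libraries, a difference between genes that was not tested.

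Spindle motors and microtubule proteins had the highest median of the 8 roles (0.30), with 7 of 7 positive. In limma 4 of the 7 were higher at an unadjusted p under 0.05, where 5.21% of all genes were. Nusap1 (ENSMUSG00000027306), which bundles spindle microtubules, was at 13.5, 13.4, 16.0 and 15.5 FPKM in the 4 controls, against 23.4, 19.7 and 20.0 FPKM in the 3 ZQD libraries. Every ZQD library lay above every control, with means of 14.6 ± 1.36 (SD, n = 4) and 21.0 ± 2.06 FPKM (SD, n = 3). Nusap1 had the largest fold change of the members, 0.51 (SE 0.10), with an adjusted p of 0.154 in limma, 0.123 in edgeR and 0.000625 in DESeq2, and 0.44 to 0.56 with 1 library left out. Hmmr (ENSMUSG00000020330), a spindle and centrosome protein, was at 18.9, 25.6, 22.0 and 22.8 FPKM across controls and 27.3, 26.2 and 29.1 FPKM across ZQD. Its groups did not overlap either (log2 fold change 0.30, limma adjusted p = 0.254). Tpx2 (ENSMUSG00000027469), the activator of Aurora A on the spindle, was at 28.9, 33.5, 31.0 and 35.8 FPKM in the 4 controls, against 34.1, 39.0 and 36.7 FPKM in the 3 ZQD libraries, with ZQD 1 below control 4. Aspm, a spindle pole protein, and Kif2c, which depolymerises microtubules at centromeres, had log2 fold changes of 0.34 and 0.31 with limma adjusted p values of 0.306 and 0.263. Kif11, the motor that separates spindle poles, was at 0.18 and the chromosome motor Kif4, which has an annotated pseudogene, at 0.11 (0.032 without control 1).

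Central spindle and cytokinesis genes organise the midzone and the cleavage furrow. The 7 had positive fold changes (0.019 to 0.36, median 0.19), with Anln and Ect2 negative on the TPM scale. An unadjusted p under 0.05 was found for 1 in limma, 3 in edgeR and 4 in DESeq2. The gene of smallest p in each, Kif20b (ENSMUSG00000024795), a motor of late cytokinesis, was at 12.2, 17.5, 15.1 and 14.6 FPKM across controls and 17.5, 17.96 and 21.8 FPKM across ZQD. Its groups were separate, although control 2 and ZQD 1 nearly touched (log2 fold change 0.36, SE 0.13, limma adjusted p = 0.263). Racgap1 (ENSMUSG00000023015), a subunit of centralspindlin, was at 15.5, 18.4, 16.5 and 22.5 FPKM in the 4 controls, against 19.7, 23.6 and 22.8 FPKM in the 3 ZQD libraries, with control 4 above ZQD 1. Anln (ENSMUSG00000036777), the furrow protein anillin, was at 22.8, 28.3, 25.7 and 34.8 FPKM across controls and 23.2, 28.8 and 32.6 FPKM across ZQD. The ZQD values of Anln lay inside the control range, with a log2 fold change of 0.019 and an interval of -0.35 to 0.39. Kif20a, Kif23 and Prc1, which build the central spindle, had log2 fold changes of 0.21, 0.19 and 0.19, and Ect2, the activator of RhoA at the furrow, of 0.036.

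The 2 anaphase ubiquitination genes had fold changes of opposite sign. Ube2c (ENSMUSG00000001403), the E2 enzyme of the anaphase-promoting complex, was at 48.4, 48.9, 46.9 and 64.0 FPKM in the 4 controls, against 40.3, 43.1 and 47.0 FPKM in the 3 ZQD libraries. ZQD 1 and ZQD 2 lay below all controls and ZQD 3 just above control 3, a log2 fold change of -0.25 (in limma, SE 0.12 and adjusted p = 0.369). It was the lowest fold change of the 42 members, and was -0.31 to -0.15 with 1 library left out, with -0.15 without control 4. Cdc20 (ENSMUSG00000006398), the activator of the same complex and the target of the checkpoint, was at 27.8, 26.3, 27.8 and 39.2 FPKM across controls and 30.4, 30.8 and 36.4 FPKM across ZQD. Every ZQD library lay above controls 1 to 3 and below control 4 (log2 fold change 0.12, 0.25 without control 4 and 0.033 without ZQD 3). Both promoters hold the CHR and CCAAT letters shown above. Among the 15 core subunits and cofactors of the anaphase-promoting complex, 5 were positive and 10 negative (median -0.11), none at an unadjusted p under 0.05. For 3 of the 15 every ZQD library lay below every control, where 9.84% of all genes did so. Its abundant subunits Cdc27 and Anapc5 were at 24.8 ± 0.825 and 24.7 ± 1.88 FPKM in controls (SD, n = 4) and at 23.6 ± 0.213 and 22.7 ± 0.518 FPKM in ZQD (SD, n = 3). The subunits of smallest p, Cdc16 and Anapc11, had log2 fold changes of -0.25 and -0.30 with limma adjusted p values of 0.339 and 0.347.

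**Figure D3:**
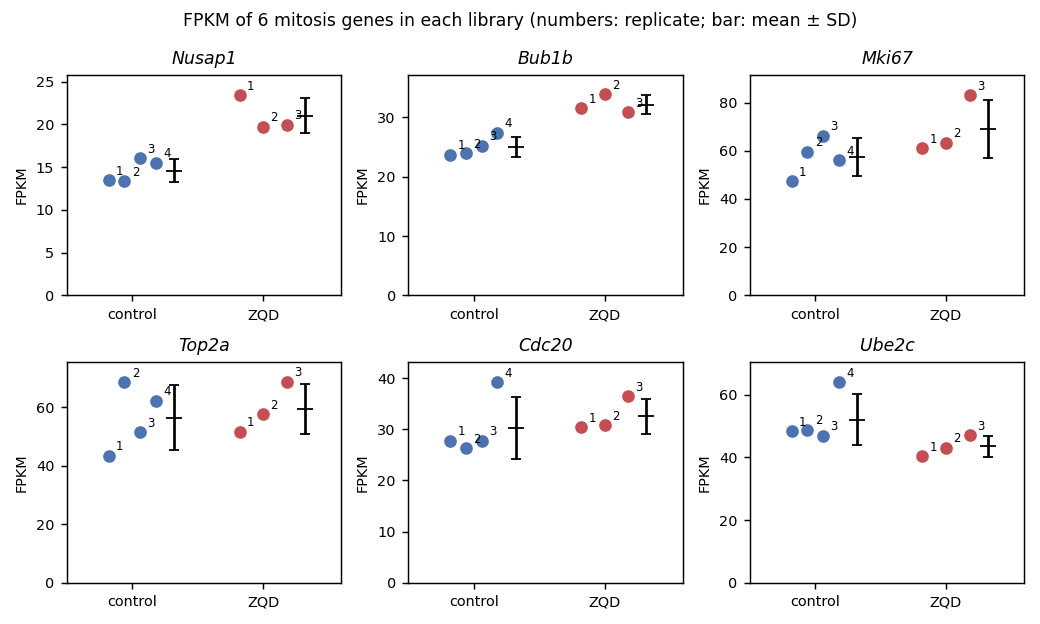
FPKM of 6 mitosis genes in each of 4 control and 3 ZQD libraries, with the replicate number beside each point and the mean ± SD as a bar. Nusap1 and Bub1b have all ZQD points above all controls, Mki67 and Top2a overlap, and Cdc20 and Ube2c each have 1 high control, number 4.

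In all, 6 members had every ZQD library above every control, where 5.35% of all genes did: Nusap1, Bub1b, Hmmr, Kif20b, Cenpe and Plk1. No member had every ZQD library below every control, where 9.84% of all genes did. The other 36 overlapped between groups.

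S-phase genes were set beside the members to ask whether both sets moved alike. Of 51 genes of replication origins, helicase, polymerases, clamp loading and nucleotide supply, 26 had positive and 25 negative fold changes, with a median of 0.0015 (12 and 39 on the TPM scale). At an unadjusted p under 0.05 in limma, 0 were higher and 3 lower, where 5.21% of all genes were higher and 10.3% lower. Of the 51, 0 passed the adjusted threshold in limma. Every ZQD library lay below every control for 2 of the 51, where it did so for 9.84% of all genes. Pcna (ENSMUSG00000027342), the polymerase clamp, was at 41.0, 58.6, 51.7 and 59.6 FPKM in the 4 controls, against 56.1, 61.7 and 62.2 FPKM in the 3 ZQD libraries, a log2 fold change of 0.20. Rrm2 (ENSMUSG00000020649), the ribonucleotide reductase subunit, was at 39.1, 69.6, 48.0 and 67.2 FPKM across controls and 38.5, 53.9 and 66.5 FPKM across ZQD, with wide spread in both groups. Cdt1 (ENSMUSG00000006585), which loads the helicase at origins, was at 18.6, 21.4, 17.7 and 28.7 FPKM in the 4 controls, against 10.1, 14.6 and 17.6 FPKM in the 3 ZQD libraries. All ZQD libraries of Cdt1 lay below all controls, though ZQD 3 only just (log2 fold change -0.61, SE 0.21, limma adjusted p = 0.252). The flap endonuclease gene Fen1, at 0.67 to 1.34 FPKM in controls and 0.28 to 0.577 FPKM in ZQD, was also separate and lower (-0.63, limma adjusted p = 0.248). Pcna has annotated pseudogenes, so its reads are uncertain to that extent.

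A score per library made the 2 sets comparable, since a factor that scales a whole library moves both alike. The mitosis score, the mean log2(FPKM + 0.5) over 42 members, was 3.96, 4.28, 4.11 and 4.29 in controls 1 to 4 and 4.26, 4.32 and 4.44 in ZQD 1 to 3. The S-phase score over 51 genes was 3.34, 3.78, 3.51 and 3.75 in controls and 3.46, 3.57 and 3.70 in ZQD. Both scores were lowest in control 1, and each overlapped between groups. The mitosis score minus the S-phase score was 0.620, 0.505, 0.602 and 0.537 in controls and 0.804, 0.758 and 0.741 in ZQD. All ZQD libraries lay above all controls, with means of 0.566 ± 0.054 (SD, n = 4) and 0.768 ± 0.032 (SD, n = 3). The difference of 0.20 was 0.18 to 0.22 with each library left out in turn. It was 0.19 to 0.21 under the other pseudocounts, filters and scalings tried and 0.18 after removal of trends on GC content and length, a setting chosen after seeing the data. The members had a median GC content of 44.8% and the S-phase genes of 48.7%, and across all 14681 genes with a value the fold change had a Spearman rho of -0.27 with GC content, a description across genes of the same libraries. No test is given for these scores, since the genes were chosen with earlier results known.

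Role by role, the difference from the S-phase score had separate groups in 7 of 8 roles. It was largest for spindle motors and microtubule proteins, with 0.296 to 0.496 in controls and 0.616 to 0.766 in ZQD. Chromosomal passenger genes were at 0.874 to 1.042 and 1.144 to 1.238, and central spindle and cytokinesis genes at 0.260 to 0.447 and 0.585 to 0.596. Kinetochore genes were at -0.275 to -0.051 and -0.050 to 0.160, groups that nearly touched, as did those of the entry cyclins and kinases (0.671 to 0.849 and 0.852 to 0.982). The anaphase ubiquitination pair overlapped, at 1.407 to 1.912 in controls and 1.641 to 1.692 in ZQD. These role differences share the S-phase score, so they are not independent of one another. Before the subtraction, only spindle motors and microtubule proteins had separate groups (3.81 to 4.07 in controls and 4.22 to 4.31 in ZQD). Every other role score then overlapped between groups, such as that of kinetochore genes (3.27 to 3.59 and 3.52 to 3.75).

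**Figure D4:**
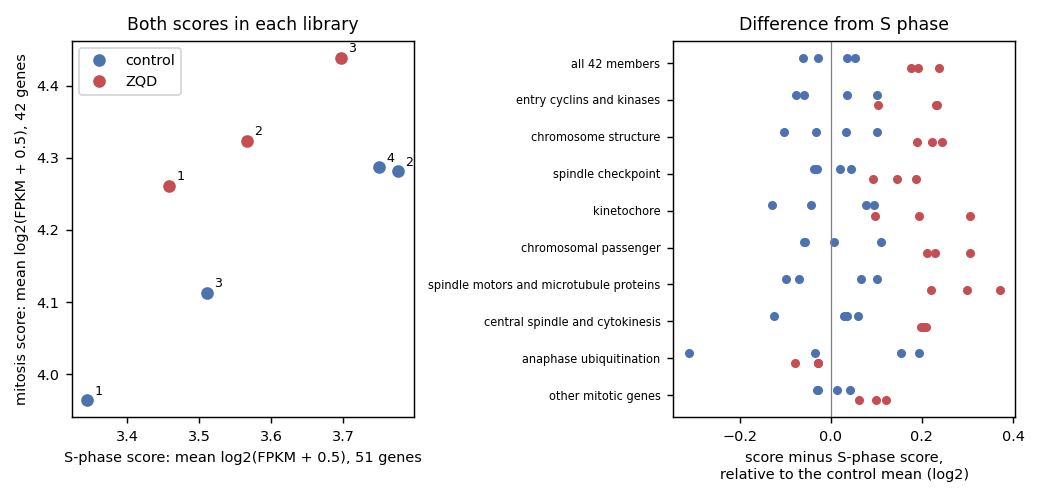
Left, the mitosis score against the S-phase score (each the mean log2(FPKM + 0.5) over its genes) for 4 control and 3 ZQD libraries, numbered by replicate; right, each score minus the S-phase score, relative to the control mean. ZQD libraries lie above controls of like S-phase score on the left, and on the right they lie to the right of all controls in each row except anaphase ubiquitination.

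A wider list of 55 other mitotic genes had 38 positive and 17 negative fold changes, with a median of 0.078. At an unadjusted p under 0.05, 2 were higher and 0 lower in limma, where 5.21% of all genes were higher and 10.3% lower. At that p 5 passed in edgeR and 5 in DESeq2, where 15% and 15.7% of all genes did in either direction. Its score minus the S-phase score was -0.162 to -0.090 in controls and -0.071 to -0.012 in ZQD, also without overlap but with a smaller difference of 0.094. Ckap2l (ENSMUSG00000048327), a spindle-associated protein, was at 32.5, 43.5, 39.96 and 32.5 FPKM across controls and 46.8, 47.3 and 50.9 FPKM across ZQD. All ZQD libraries of Ckap2l lay above all controls (log2 fold change 0.39, adjusted p = 0.211 in limma and 0.0431 in DESeq2). Of the 55, 2 had every ZQD library above every control, where 5.35% of all genes did. DESeq2 called 1 of the 55, where it called 4.13% of genes in either direction and 2.3% as higher. Sgo2a, a shugoshin that guards centromeric cohesion, was at 2.35 ± 0.269 FPKM in controls (SD, n = 4) and 2.95 ± 0.298 FPKM in ZQD (SD, n = 3). The 2 most abundant genes of the list, Cks1b, a subunit of cyclin-dependent kinases, and Zwint, a kinetochore protein, had log2 fold changes of -0.015 and 0.082.

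Transcription factors of the cell cycle were mixed in direction. Of 20 tested, 9 were positive and 11 negative (median -0.048). At an unadjusted p under 0.05 in limma 0 were higher and 3 lower, where 5.21% of all genes were higher and 10.3% lower. E2f1 (ENSMUSG00000027490), an activator of S-phase genes, was at 14.4, 15.7, 15.1 and 15.1 FPKM in the 4 controls, against 11.9, 13.0 and 11.3 FPKM in the 3 ZQD libraries. E2f4 (ENSMUSG00000014859), the E2F of the DREAM complex, was at 49.6, 44.9, 42.4 and 58.3 FPKM across controls and 37.6, 37.3 and 41.5 FPKM across ZQD. For both, all ZQD libraries lay below all controls, with log2 fold changes of -0.31 and -0.32 and limma adjusted p values of 0.178 and 0.261. Myc (ENSMUSG00000022346), a growth-driving factor, was at 97.3, 116.0, 102.8 and 117.9 FPKM in the 4 controls, against 58.7, 88.1 and 84.1 FPKM in the 3 ZQD libraries. Its groups were separate too (log2 fold change -0.51, SE 0.15, limma adjusted p = 0.195), and the value was -0.33 without ZQD 1. Of the 20, these 3 had every ZQD library below every control, where 9.84% of all genes did.

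G1 cyclins, their kinases and the inhibitors of these kinases were positive for 8 of 11 tested (median 0.055). In limma 1 was higher and 0 lower at an unadjusted p under 0.05, where 5.21% of all genes were higher and 10.3% lower. In edgeR 0 passed at that p, where 15% of all genes did in either direction. Ccnd1, the main D-type cyclin of many tumours, was at 100.9 ± 6.00 FPKM in controls (SD, n = 4) and 102.7 ± 13.1 FPKM in ZQD (SD, n = 3). Its kinase Cdk4 had a log2 fold change of -0.14. Cdkn2d, the inhibitor p19, was at 5.93 ± 0.354 FPKM in controls and 7.01 ± 0.483 FPKM in ZQD, with separate groups (0.22, limma adjusted p = 0.292). It was the only 1 of the 11 with every ZQD library above every control, where 5.35% of all genes did so. Cdkn1a, the inhibitor p21, was at 33.1 ± 3.43 and 38.6 ± 5.69 FPKM, with overlapping groups (0.21, limma adjusted p = 0.426).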

How the data were processed

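Poly(A) RNA of 7 tumour libraries was sequenced. FPKM of each library are the authors' deposited values; a deposited table of whole counts was used for 2 controls (1 and 2). HISAT2, featureCounts, Subread and DESeq2 are named, without roles or versions, per the submitters' processing notes; build, annotation and strandedness were not given there. Count over length and total equals FPKM in those 2 controls, which gave lengths for 27421 genes and, from them, whole reads (within 0.05) for every library, 32065288 to 49914394 in total. Symbols matched 98.0% of identifiers. The main test, two-sided and Benjamini-Hochberg adjusted, was limma 3.58.1 with trend in R 4.3.3. It used log2(FPKM + 0.5) of the 14838 genes that reached 0.5 FPKM in 3 or more libraries. edgeR 4.0.16 (quasi-likelihood) and DESeq2 1.42.0 ran on rebuilt reads of 14832 genes. All were run on simulated data whose planted changes were larger than that of any member, so this run does not bear on changes of the members' size. Values in each library are given for Mki67 and, per role, the 2 most abundant members and the member of smallest p, with Plk1 added after its values were seen; for the other lists, the 2 most abundant genes and the 2 of smallest p are named. Members and lists were chosen with earlier results of these data known. Alternatives were the pseudocount, filter, scaling, variance trend, replicate block, each library left out and, chosen after seeing the data, removal of GC and length trends (GC from GENCODE transcripts).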

Additional observations from a re-analysis of the deposited data

Results flagged for a closer look

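Of 86 gene levels and scores examined over the 4 controls, 6 had 1 control far from the other 3, by a Dixon criterion that chance meets in about 1 in 20 groups. Control 4 was the high library in 4 of them. Ube2c was at 64.0 FPKM in control 4 against 46.9 to 48.9 FPKM in the other controls, and Cdc20 at 39.2 against 26.3 to 27.8 FPKM. The centromeric histone gene Cenpa was at 16.3 FPKM in that library against 13.6 to 13.9 FPKM. The anaphase ubiquitination score, made of Ube2c and Cdc20, was 5.66 against 5.18 to 5.22. Plk1 was at 21.4 FPKM in control 3 against 27.3 to 28.5 FPKM. The score of central spindle and cytokinesis genes minus the S-phase score was 0.260 in control 2 against 0.416 to 0.447.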

How the results depend on the processing

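The mitosis minus S-phase difference of 0.20 kept its direction in every alternative run for it (0.18 to 0.22). No member passed in limma under any setting. DESeq2 called 517 genes and 2 members, Nusap1 and Bub1b, against 0 genes and 0 members in limma and edgeR. Same-numbered controls and ZQD libraries had deviations correlated at r = 0.25, 0.0998 and -0.15. So few values cannot show whether the numbers pair the samples, and the main fit took the libraries as unpaired. With the replicate block, which leaves control 4 without weight, 1 gene and 0 members passed. Members at an unadjusted p under 0.05 numbered 8 in limma, 13 in edgeR, 16 in DESeq2, 13 with TMM or median-of-ratios scaling, 17 without mitochondrially encoded genes, 15 with the block, and 2 higher and 1 lower on the TPM scale. On the TPM scale 7 members turned negative: Anln (-0.083), Aurka (-0.0073), Aurkb (-0.099), Cdc25c (-0.042), Cenpa (-0.028), Ect2 (-0.066) and Top2a (-0.017). Bub1 turned positive in edgeR (0.0048), DESeq2 (0.0065), with TMM (0.015), median of ratios (0.016), without mitochondrially encoded genes (0.026) and with the block (0.027). Bub3 did so in edgeR (0.038), DESeq2 (0.039), with TMM (0.039), median of ratios (0.041), without mitochondrially encoded genes (0.050), with the block (0.039) and with GC and length trends removed (0.034). With 1 library left out, log2 fold changes ran from -0.090 to 0.15 for Anln, -0.11 to 0.085 for Aurkb, -0.14 to 0.076 for Bub1, -0.038 to 0.039 for Bub3, -0.039 to 0.10 for Cdc25c, -0.046 to 0.11 for Ect2, -0.033 to 0.18 for Top2a and -0.012 to 0.20 for Ttk. The S-phase median was -0.097 on the TPM scale and -0.071 to 0.049 with 1 library left out. Causes were not tested.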
